A study of Mus musculus with 12 samples.

Results

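Expression of genes was followed from 24 h to 48 h post-induction in spheroids of WT and CIDEA KO mouse embryonic stem cells (ESCs), and the question was which genes differed between the genotypes in how they changed over that day. The 8 libraries used were chosen from the sample labels as all spheroid libraries, out of 12 in the series. They form 4 groups of 2 libraries each: WT at 24 h, KO at 24 h, WT at 48 h and KO at 48 h. The other 4 libraries, from ESCs of both genotypes before induction, were used only to share the estimate of replicate spread and as a separate set in which to pick genes. WT cells are the parental R1 line of mouse ESCs. KO cells carry a CRISPR-Cas9 deletion of the *Cidea* locus, made with a guide in the first intron and another in the last exon. All KO libraries came from 1 subclone, 19.7, so loss of *Cidea* and any other difference of this clone cannot be told apart. ESCs were grown with the cytokine LIF and 10% FBS. Spheroids of both genotypes grew in medium with 15% FBS and no LIF. The labels place them within growth factor-reduced Matrigel, a basement membrane gel, while the study's methods describe molecular work on single cells seeded on top of a Matrigel layer.

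CIDEA is a protein of the lipid droplet surface that lets droplets fuse and enlarge. During the day studied here, spheroid cells leave naive pluripotency, in which factors such as KLF4 and ESRRB hold the cells in an early epiblast state, and enter the formative and primed states marked by POU3F1, OTX2, FGF5 and the DNA methyltransferase DNMT3B. Nodal, a ligand of the TGF-beta family, acts through SMAD2 and SMAD3 in these cells. Its targets *Lefty1* and *Lefty2* encode secreted inhibitors that hold Nodal signalling in check, so that both serve as readouts of the pathway and as its feedback.

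The estimated counts of the 8 spheroid libraries summed to between 29.2 M and 38.5 M, and 3 counts, the floor set for detection, corresponded to 0.0784 to 0.1035 counts-per-million (CPM). This floor covers counting error only. Levels below are in CPM after TMM scaling unless counts are named. At equal depth, KO 24 h replicate 1 detected 15473 genes while the other spheroid libraries detected 17664 to 19672. In that library 529 genes stood at 0 counts although each of the other 7 spheroid libraries held at least 10, and the same number for any other library lay between 1 and 38. The main results and the named lists are therefore given with and without it. The targeted gene followed the labels. *Cidea* had 117 and 46 counts in WT at 24 h, 20 and 21 counts in WT at 48 h, and 0 counts in the 4 KO spheroid libraries. Against the floor of 1 library KO was thus at least 27.0-fold below the mean of WT at 24 h and, at 48 h, at least 6.19-fold below it. Fold bounds here and below use the mean CPM of the 2 libraries with counts, so 1 of them can lie closer to the floor.

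The change from 24 h to 48 h differed between the genotypes for 4 of 17424 genes tested (0.023%), *Lefty1*, *Wt1*, *Tgtp1* and *Gm7332*, by edgeR's quasi-likelihood test of the interaction with Benjamini-Hochberg adjustment at 0.05. All 4 were positive: KO stood below WT at 24 h, and the change to 48 h was further upward in KO. No gene was called in the opposite direction in edgeR, in which 380 genes had an unadjusted p under 0.05 against 514 in the positive direction, and DESeq2 called 14 positive and 5 negative. The number of calls rested on single libraries. Without KO 24 h replicate 1 it was 29, without KO 24 h replicate 2, which leaves that library alone in its group, 821, without WT 24 h replicate 1 it was 1, without KO 48 h replicate 2 it was 2, and without KO 48 h replicate 1 or either WT 48 h library 0. For scale, 255 genes differed between the genotypes at 24 h (1.46%) and 117 at 48 h (0.671%). Over the same day, 1418 genes changed in WT (8.14%) and 1733 in KO (9.95%). The interaction, written here as the log2 change from 24 h to 48 h in KO minus that in WT, had a median of 0.03 over all genes tested.

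*Lefty1* on chromosome 1 (GRCm38, 180935022 to 180938400, plus strand) was the most abundant of the 4. Its level was 23.4 and 20.8 CPM in WT and 8.49 and 8.38 CPM in KO at 24 h, and 93.8 and 85.7 CPM in WT and 69.8 and 75.6 CPM in KO at 48 h. The genotypes were far apart at 24 h, and at 48 h both KO libraries still lay below both WT libraries but by a small margin. KO was 2.62-fold lower at 24 h (log2 difference -1.39, SE 0.13, adjusted p = 9.5e-06 in edgeR) and 1.23-fold lower at 48 h (-0.30, SE 0.11, adjusted p = 0.42 in edgeR). *Lefty1* rose 4.06-fold in WT and 8.61-fold in KO over the day, and the interaction was 1.08 (SE 0.17, edgeR adjusted p = 0.025). Fitted on the 8 spheroid libraries alone it was 1.09 and not called (edgeR adjusted p = 0.054). Leaving out KO 24 h replicate 1 gave 1.09 (adjusted p = 0.014 in edgeR). The transcript was not newly switched on in spheroids: ESCs held 102 and 91.1 CPM in WT and 52.7 and 43.9 CPM in KO, so that in both genotypes the level was lowest at 24 h. The adjusted p was above 0.05 when WT 24 h replicate 1 (0.43), WT 48 h replicate 1 (0.085) or 2 (0.2), or KO 48 h replicate 1 (0.076) or 2 (0.12) was left out, with the interaction between 1.0 and 1.17 in every leave-out.

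*Lefty2*, the neighbouring paralog, shares 25.7% of the 31-base words of *Lefty1*, so reads can in part be told apart between them. *Lefty2* had 57.9 and 54.5 CPM in WT and 27.8 and 17.7 CPM in KO at 24 h, and 153 and 150 CPM in WT and 106 and 84.0 CPM in KO at 48 h. KO libraries lay below WT libraries at both times, and the KO libraries at 24 h stood apart from each other. The difference was -1.30 at 24 h (adjusted p = 0.0034 in edgeR) and -0.67 at 48 h (adjusted p = 0.14), and the interaction of 0.63 (SE 0.23) was not called (edgeR adjusted p = 0.96). With KO 24 h replicate 1 left out it was 1.0 and called (edgeR adjusted p = 0.0078). On the per-length scale the same gene gave another picture, since TPM was 36.1 and 38.5 in WT and 38.8 and 13.4 in KO at 24 h: replicate 1 of KO was level with WT and replicate 2 far below. With transcript lengths entered in the fit the interaction of *Lefty2* was -0.03, so its direction depended on the scale. When a library was left out the interaction stayed positive, from 0.35 without KO 24 h replicate 2 to 1.0 without replicate 1.

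*Nodal* itself, the ligand, did not follow its inhibitors. The gene lies on chromosome 10 and was already lower in KO in ESCs (-0.77, adjusted p = 0.0058 in edgeR). As given below, the 59 genes of that chromosome called in ESCs kept their difference as a set. Whether the course of *Nodal* belongs with theirs or with Nodal signalling was not tested. *Nodal* had 63.6 and 64.7 CPM in WT and 41.4 and 45.9 CPM in KO at 24 h, and 58 and 55.4 CPM in WT and 28.1 and 41.1 CPM in KO at 48 h. KO libraries were below WT libraries at both times. The differences were -0.56 (adjusted p = 0.053 in edgeR) and -0.72 (adjusted p = 0.019), and the interaction was -0.16 (SE 0.20, edgeR adjusted p = 0.99). The list of Nodal and BMP genes held 17 names for 16 genes, *Tdgf1* being entered under both its names. Of these 15 were tested, 1 was called (*Lefty1*), and 8 interactions were positive and 7 negative with a median of 0.06. Leaving out KO 24 h replicate 1 gave a median of -0.03 and 2 calls (*Lefty1* and *Lefty2*), and removing the trend on transcript length a median of -0.08. *Tdgf1*, the co-receptor of Nodal, had an interaction of 0.13 (SE 0.10), *Smad7*, an inhibitory SMAD, one of -0.06 (SE 0.20), and *Id2*, a target of BMP signalling, one of -0.12 (SE 0.13).

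*Wt1*, which encodes a zinc finger transcription factor best known from kidney and gonad development, had the largest interaction among the called genes with counts in every library. On chromosome 2 (105126529 to 105173616), it had 11.9 and 8.35 CPM in WT and 2.34 and 1.76 CPM in KO at 24 h, and 30.3 and 30.8 CPM in WT and 26.4 and 24.6 CPM in KO at 48 h. As for *Lefty1*, a wide gap at 24 h had nearly closed at 48 h. KO was 4.93-fold lower at 24 h (-2.30, SE 0.25, adjusted p = 4.7e-05 in edgeR) and 1.20-fold lower at 48 h (-0.26, SE 0.23, adjusted p = 0.94). The gene rose 3.02-fold in WT and 12.4-fold in KO, giving an interaction of 2.04 (SE 0.34, edgeR adjusted p = 0.036). It was 2.26 without KO 24 h replicate 1 (adjusted p = 0.0082 in edgeR). Of its 31-base words, 99.9% occur in no other gene. The call was lost without WT 24 h replicate 1 (adjusted p = 0.55), without replicate 1 or 2 of WT at 48 h (0.31 each), without replicate 1 (0.3) or 2 (0.12) of KO at 48 h, and without either KO ESC library (0.061 each), with the interaction between 1.76 and 2.27 throughout.

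The other called genes, *Tgtp1* and *Gm7332*, had a group at 0 and a near-identical copy elsewhere in the genome, and the counts of such pairs are divided by estimation. *Tgtp1* encodes an interferon-inducible GTPase. It had 126 and 109 counts in WT and 0 and 0 counts in KO at 24 h, and 188 and 282 counts in WT and 247 and 109 counts in KO at 48 h. The floor of 3 counts in 1 library does not cover reads given to a copy. On the counts as assigned and against that floor, *Tgtp1* was at least 38.5-fold lower in KO than in the mean of WT at 24 h. It was at least 57.2-fold higher in the mean of KO at 48 h than in KO at 24 h. Its neighbour *Tgtp2* on the same strand of chromosome 11 differs at 4 of 1245 coding bases. A difference, in capitals, lies in bases 240 to 299 of both coding sequences (GENCODE M21 transcripts), and this stretch is shown because few reads can cover a difference.
Tgtp1: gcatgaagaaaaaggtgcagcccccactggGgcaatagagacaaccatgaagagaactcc
Tgtp2: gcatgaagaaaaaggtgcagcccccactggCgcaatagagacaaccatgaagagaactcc
Only 15.6% of the 31-base words of *Tgtp1* occur in no other gene and 83.2% occur in *Tgtp2*. *Tgtp2* held 15 counts in KO 24 h replicate 2 and 10 counts in WT 48 h replicate 2, and 0 in the other spheroid libraries. With both genes added together, an alternative chosen after seeing the data, the interaction was 3.43 and not called (edgeR adjusted p = 0.96). The single-gene call was also lost without replicate 1 of WT at 24 h (adjusted p = 0.064 in edgeR), replicate 1 (0.085) or 2 (0.12) of WT at 48 h, or replicate 1 of KO at 48 h (0.076).

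*Gm7332* is a processed pseudogene on chromosome 5 (9260935 to 9261388, minus strand). It had 104 and 19 counts in WT and 0 and 0 in KO at 24 h, and 0 and 0 in WT and 223 and 174 in KO at 48 h, so the genotype with counts was a different one at each time. On the counts as assigned and against the floor, it was at least 20.6-fold lower in KO than in the mean of WT at 24 h, with WT replicate 2 well below that mean. At 48 h it was at least 57.3-fold higher in the mean of KO. It is a copy of *Ppp1r14b*, which encodes an inhibitor of protein phosphatase, and differs from its coding sequence at 1 of 440 aligned bases. That base, in capitals, lies in bases 377 to 436 of both sequences, and the stretch is shown because it holds the 1 base that separates the pair over the aligned length.
Gm7332: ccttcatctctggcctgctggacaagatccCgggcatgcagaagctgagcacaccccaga
Ppp1r14b: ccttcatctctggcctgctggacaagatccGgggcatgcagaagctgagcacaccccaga
*Ppp1r14b* itself held 4269 to 5594 counts in the 8 libraries, and its interaction was 0.10 (SE 0.14). Only 9.7% of the words of *Gm7332* occur in no other gene. Its call was lost without KO 24 h replicate 1 (edgeR adjusted p = 0.17), KO 48 h replicate 1 (0.052), or WT 48 h replicate 1 (0.085) or 2 (0.12). Values of *Tgtp1* and *Gm7332* are therefore uncertain, and where each library had to hold 10 counts the calls were *Lefty1* and *Wt1*.

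**Figure D1:**
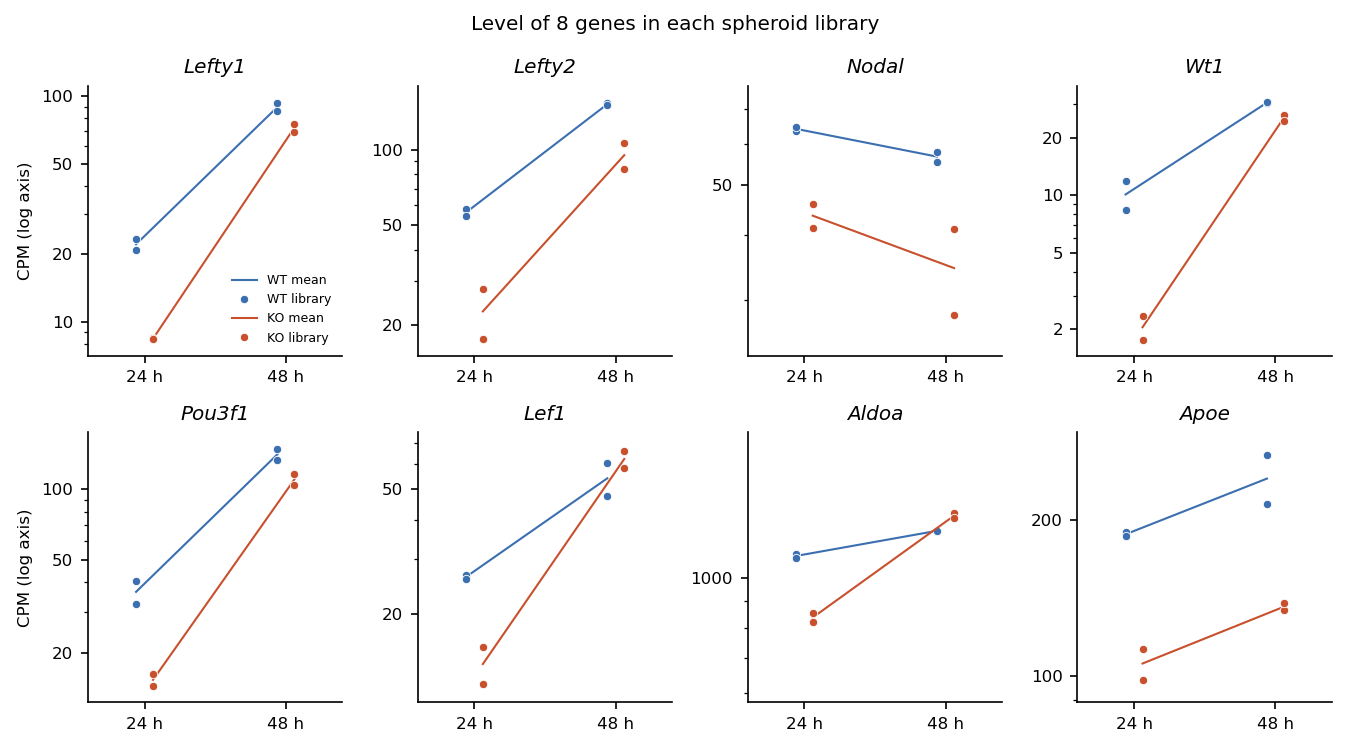
Level of 8 genes in CPM (log axis) at 24 h and 48 h, with 1 point per library (2 per group) and a line joining the group means, for WT (blue) and KO (red). For *Lefty1* and *Wt1* the lines nearly meet at 48 h, at 93.8 and 85.7 against 69.8 and 75.6 CPM for *Lefty1*, while for *Nodal* and *Apoe* they stay apart.

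The 20 genes that followed in order of p did not pass the test. Their interactions were positive for 14 and negative for 6, and 11 of the 14 were called lower in KO at 24 h and not called at 48 h. Since they were picked by the interaction, these counts are a description. *Pou3f1* encodes a POU factor of the formative state. It had 40.6 and 32.4 CPM in WT and 14.6 and 16.3 CPM in KO at 24 h, against 133 and 147 CPM in WT and 115 and 104 CPM in KO at 48 h. The groups did not overlap at either time. Its difference was -1.24 at 24 h (adjusted p = 9.2e-05 in edgeR) and -0.35 at 48 h (adjusted p = 0.45), with an interaction of 0.89 (SE 0.20, edgeR adjusted p = 0.54), and 0.81 without KO 24 h replicate 1 (adjusted p = 0.22). *Lef1*, a transcription factor that acts with beta-catenin in Wnt signalling, had 26.6 and 26.0 CPM in WT and 15.8 and 12 CPM in KO at 24 h, and 47.6 and 60.8 CPM in WT and 66.3 and 58.6 CPM in KO at 48 h. At 48 h the *Lef1* groups overlapped. Its interaction was 1.12 (SE 0.27, edgeR adjusted p = 0.58), and 1.33 without KO 24 h replicate 1 (adjusted p = 0.043).

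The DNA methyltransferase genes *Dnmt3a* and *Dnmt3b* were lower in KO at 24 h by 0.36 and 0.34 on the log2 scale (adjusted p = 0.0068 and 0.0099 in edgeR). At 48 h their differences were 0.01 and 0.00, and the interactions of 0.37 and 0.34 (SE 0.09 for both) were not called. *Dnmt3l*, their catalytically inactive partner, had 387 and 349 CPM in WT and 336 and 318 CPM in KO at 24 h, and 203 and 192 CPM in WT and 233 and 243 CPM in KO at 48 h. KO libraries lay below WT libraries at 24 h and above them at 48 h, neither difference being called, with an interaction of 0.44 (SE 0.11, edgeR adjusted p = 0.58). Among enzymes of glycolysis, *Aldoa*, the aldolase, had 1110 and 1090 CPM in WT and 853 and 822 CPM in KO at 24 h, and 1230 in both WT libraries and 1330 and 1300 CPM in KO at 48 h. Its interaction was 0.50 (SE 0.09, edgeR adjusted p = 0.1), and 0.52 without KO 24 h replicate 1 (adjusted p = 0.031). *Tpi1*, the triose phosphate isomerase, had 277 and 276 CPM in WT and 191 and 200 CPM in KO at 24 h. At 48 h it had 375 and 376 CPM in WT and 404 and 377 CPM in KO, and the interaction was 0.56 (SE 0.12, edgeR adjusted p = 0.44), or 0.53 without KO 24 h replicate 1 (adjusted p = 0.21).

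Also positive and not called were *Pim2*, a kinase gene (0.54), *Igfbp2*, which encodes a binding protein of insulin-like growth factors (0.50), *Gpx4*, the glutathione peroxidase that removes lipid peroxides (0.41), and *Ppp2r2c*, a regulatory subunit of protein phosphatase 2A (2.21). *Gpx4* passed without KO 24 h replicate 1 (adjusted p = 0.029 in edgeR). *Ppp2r2c* differed from the rest in that the genotypes were close at 24 h, at 4.22 and 3.77 CPM in WT and 2.49 and 3.64 CPM in KO, and apart at 48 h, at 1.93 and 2.67 CPM in WT and 6.88 and 9.53 CPM in KO (log2 difference 1.83, adjusted p = 0.024 in edgeR). The ribosomal protein gene *Rps29* and the ribosomal protein copies *Rpl37rt*, *Rpl10a-ps1* and *Rpl31-ps8* had interactions of 0.46, 0.68, 0.37 and 0.45. All words of *Rpl10a-ps1* and *Rpl31-ps8* occur in other genes, so these counts cannot be assigned, and with the trend on transcript length removed *Rps29* and *Rpl31-ps8* stood at -0.00 and -0.01.

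Negative interactions, with a smaller gain or a larger loss in KO, led with *Aldh1l2*, *Islr2*, *Tead1*, *Ntn1*, *Pkd1* and *Socs3*. None of them was called with all 12 libraries in the fit, while *Aldh1l2* and *Tead1* were when KO 24 h replicate 1 was left out. *Aldh1l2*, the mitochondrial formyltetrahydrofolate dehydrogenase, had 0.565 and 0.338 CPM in WT and 4.63 and 1.09 CPM in KO at 24 h, and 0.645 and 0.954 CPM in WT and 0.159 and 0.243 CPM in KO at 48 h. Its interaction of -4.66 (SE 0.85, edgeR adjusted p = 0.1) rested on few reads, and without KO 24 h replicate 1 it was -3.27 (adjusted p = 0.044). *Socs3*, which encodes the feedback inhibitor of LIF and STAT3 signalling, had 12.1 and 10.1 CPM in WT and 12.2 and 11.6 CPM in KO at 24 h. At 48 h it had 3.93 and 3.31 CPM in WT and 1.35 and 2.18 CPM in KO, and the difference at 48 h was called (-1.06, adjusted p = 0.044 in edgeR). Its interaction was -1.16 (SE 0.28, edgeR adjusted p = 0.59). *Ntn1*, the guidance cue netrin 1, had 52.9 and 53.4 CPM in WT and 75.2 and 74.5 CPM in KO at 24 h, and 14.2 and 15.0 CPM in WT and 10.6 and 14.9 CPM in KO at 48 h. The interaction of *Ntn1* was -0.70 (SE 0.17), that of *Islr2* -1.03 (SE 0.25), that of *Pkd1* -0.86 (SE 0.22) and that of *Tead1*, a transcription factor of the Hippo pathway, -0.54 (SE 0.13).

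Grouped by list, interactions were mostly positive among genes of the primed and formative states and mostly negative among naive genes. Of 18 primed and formative genes, all tested, 15 had a positive interaction, where 53.5% of all genes did. The median was 0.22 beside 0.03 over all genes. None was called, and 5 had a positive interaction at an unadjusted p under 0.05 (*Pou3f1*, *Lef1*, *Dnmt3a*, *Dnmt3b* and *Sall2*), where 2.95% of all genes did. At 24 h 4 of the list were called lower in KO, where 1.02% of all genes were, and at 48 h 0 were called, where 0.195% of all genes were called higher and 0.476% lower. With KO 24 h replicate 1 left out the median was 0.16, and 6 genes had a positive interaction at an unadjusted p under 0.05, where 2.67% of all genes did. *Sall2*, a zinc finger factor gene, had 71.3 and 54.0 CPM in WT and 53.8 and 44.6 CPM in KO at 24 h, and 94.5 and 94.6 CPM in WT and 113 and 112 CPM in KO at 48 h. Its groups nearly touched at 24 h, with KO below, and KO lay above WT at 48 h, and the interaction was 0.60 (SE 0.18, edgeR adjusted p = 0.88). *Fgf5*, a growth factor gene of the primed state, had 8.0 and 5.54 CPM in WT and 3.34 and 1.85 CPM in KO at 24 h, and 58.2 and 56.8 CPM in WT and 49.0 and 41.6 CPM in KO at 48 h. The *Fgf5* interaction of 1.04 (SE 0.49) was not called (edgeR adjusted p = 0.97). *Otx2*, which encodes a homeobox factor of the primed epiblast, had an interaction of 0.24 (SE 0.13).

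Of 14 naive genes, 12 had a negative interaction and 2 a positive one, where 53.5% of all genes had a positive one. The median was -0.24. Again none was called, and 5 had a negative interaction at an unadjusted p under 0.05 (*Klf4*, *Esrrb*, *Zfp42*, *Tdh* and *Tbx3*), where 2.18% of all genes did. Over the day 12 of the 14 were called lower in WT and 12 in KO, where 4.86% and 5.37% of all genes were. The median difference between KO and WT in the list was 0.04 at 24 h and -0.24 at 48 h. At 24 h 2 were called higher in KO (*Klf4* and *Zfp42*), where 0.448% of all genes were. At 48 h 1 was called lower in KO (*Tdh*, -0.43, adjusted p = 0.0011 in edgeR), where 0.476% of all genes were. *Klf4*, a factor of the naive network, had 99.3 and 105 CPM in WT and 136 and 137 CPM in KO at 24 h, and 18.2 and 21.8 CPM in WT and 18.3 and 21.6 CPM in KO at 48 h. KO was above WT at 24 h (0.42, adjusted p = 0.017 in edgeR), and the groups overlapped at 48 h. *Zfp42*, also known as *Rex1*, had the same course: 481 and 466 CPM in WT and 598 and 596 CPM in KO at 24 h, and 206 and 219 CPM in WT and 202 and 235 CPM in KO at 48 h. *Esrrb*, a nuclear receptor gene, and *Tbx3*, a T-box factor gene, took the other course, with overlapping genotypes at 24 h and KO below WT at 48 h. *Esrrb* had 381 and 394 CPM in WT and 388 and 411 CPM in KO at 24 h, and 179 and 189 CPM in WT and 143 and 162 CPM in KO at 48 h. *Tbx3* had 132 and 128 CPM in WT and 129 and 139 CPM in KO at 24 h, and 37.6 and 48.1 CPM in WT and 25.5 and 36.3 CPM in KO at 48 h. The 4 interactions were -0.43, -0.30, -0.31 and -0.52 in the order named. Leaving out KO 24 h replicate 1 gave the list a median of -0.31 and 9 genes with a negative interaction at an unadjusted p under 0.05, where 2.66% of all genes had one. Of the general pluripotency genes 9 were tested, with a median of 0.03 and 0 at an unadjusted p under 0.05 (-0.03 and 2, both negative, without KO 24 h replicate 1). *Pou5f1*, which encodes OCT4, had an interaction of 0.12 (SE 0.09), and *Sox2* one of -0.24 (SE 0.11).

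Of 25 genes of glycolysis and hypoxia tested, 16 had a positive interaction and 9 a negative one, where 53.5% of all genes had a positive one. The median was 0.20. At an unadjusted p under 0.05, 10 interactions were positive and 1 negative, where 2.95% and 2.18% of all genes were. None was called. The 10 were *Aldoa*, *Tpi1*, *Eno1*, *Pgk1*, *Pkm*, *Ldha*, *Gapdh*, *Pfkl*, *Egln3* and *Bnip3*, the first 8 of which encode glycolytic enzymes. *Eno1*, the enolase gene, had 1390 in both WT libraries and 1180 CPM in both KO libraries at 24 h, and 1580 and 1600 CPM in WT and 1640 and 1600 CPM in KO at 48 h. *Pgk1*, the phosphoglycerate kinase gene, had 533 and 528 CPM in WT and 387 and 397 CPM in KO at 24 h, and 692 and 696 CPM in WT and 658 and 599 CPM in KO at 48 h. In both genes KO was lower at 24 h (adjusted p = 0.037 and 0.0023 in edgeR), and at 48 h no difference was called. *Ldha*, lactate dehydrogenase, differed in course: at 24 h it had 860 and 876 CPM in WT and 887 and 827 CPM in KO, with overlap, and at 48 h 1040 and 1020 CPM in WT and 1240 and 1260 CPM in KO, without. *Egln3*, a prolyl hydroxylase gene induced in hypoxia, had 8.17 and 5.63 CPM in WT and 1.93 and 2.41 CPM in KO at 24 h, and 13 and 12.3 CPM in WT and 12.2 and 6.72 CPM in KO at 48 h. The interactions of these 4 genes were 0.27, 0.29, 0.30 and 1.25. *Hk1*, the hexokinase gene, did not follow them, being called lower in KO at both times by 0.64 and 0.86 on the log2 scale (interaction -0.22, SE 0.20). With KO 24 h replicate 1 left out the list had a median of 0.26. With the trend on transcript length removed it had a median of 0.12. There, 8 genes had a positive interaction at an unadjusted p under 0.05, where 1.86% of all genes did.

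Genes of p53 response that were called at either time were all higher in KO. Of 17 tested, 7 were called higher in KO at 24 h and 1 at 48 h, where 0.448% and 0.195% of all genes were, and the median difference was 0.38 at 24 h and 0.30 at 48 h. Of their interactions 13 were negative and 4 positive, where 53.5% of all genes had a positive one. The median was -0.04, and 3 were negative at an unadjusted p under 0.05, where 2.18% of all genes were. Leaving out KO 24 h replicate 1 gave a median of -0.15 and 1 such gene. *Perp*, a p53 target of cell adhesion and apoptosis, had 8.77 and 11.5 CPM in WT and 27.7 and 22.4 CPM in KO at 24 h, and 13.6 and 13.8 CPM in WT and 18.2 and 19.2 CPM in KO at 48 h. The groups did not overlap at either time, and the interaction of -0.86 (SE 0.26) was not called (edgeR adjusted p = 0.88). *Zmat3*, an RNA-binding target of p53, was called at both times with differences of 0.52 and 0.48.

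DNA methylation genes divided: *Dnmt3a*, *Dnmt3b* and *Dnmt3l* were the 3 of 9 with a positive interaction at an unadjusted p under 0.05, where 2.95% of all genes had one. The median of the list was -0.07. Among Tcf/Lef and Wnt target genes, 14 of 17 interactions were positive, beside 53.5% of all genes. Their median was 0.22, which was 0.11 without KO 24 h replicate 1. *Lef1* was the 1 gene with an unadjusted p under 0.05. *Fgf15* was the 1 such gene of 20 in the FGF and ERK list (interaction 0.86, SE 0.22, edgeR adjusted p = 0.65). It had 45.5 and 43.4 CPM in WT and 30.1 and 30.7 CPM in KO at 24 h, and 42.0 and 48.0 CPM in WT and 50.5 and 60.8 CPM in KO at 48 h, so KO lay below WT and then above it. The list around the deleted gene, of lipid droplet storage and lipolysis, had 22 members tested, a median of -0.09 and 1 gene with an unadjusted p under 0.05, the perilipin gene *Plin4* (interaction -5.65, SE 2.49, from 0.0297 to 1.82 CPM). Fatty acid oxidation genes had a median of 0.18 over 17 tested, with 1 gene at an unadjusted p under 0.05 in each direction, *Etfa* and *Cpt1a*. *Cpt1a*, the gateway enzyme for fatty acid entry into mitochondria, was called lower in KO at 48 h by 0.57 on the log2 scale. The lists of cholesterol and fatty acid synthesis (median 0.02), autophagy and lysosome (0.06), epithelial polarity (0.00), claudins and GRHL2 targets (0.11), integrins and basement membrane (0.03) and cell cycle and Myc (0.04) each had at most 1 gene at an unadjusted p under 0.05 in either direction. Without KO 24 h replicate 1 the medians of the lists in this paragraph lay between -0.12 for lipid droplet genes and 0.14 for fatty acid oxidation genes, and *Mki67*, a proliferation marker, was called (-0.58, edgeR adjusted p = 0.031). In all, 307 list genes were tested and 1 was called, *Lefty1*.

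**Figure D2:**
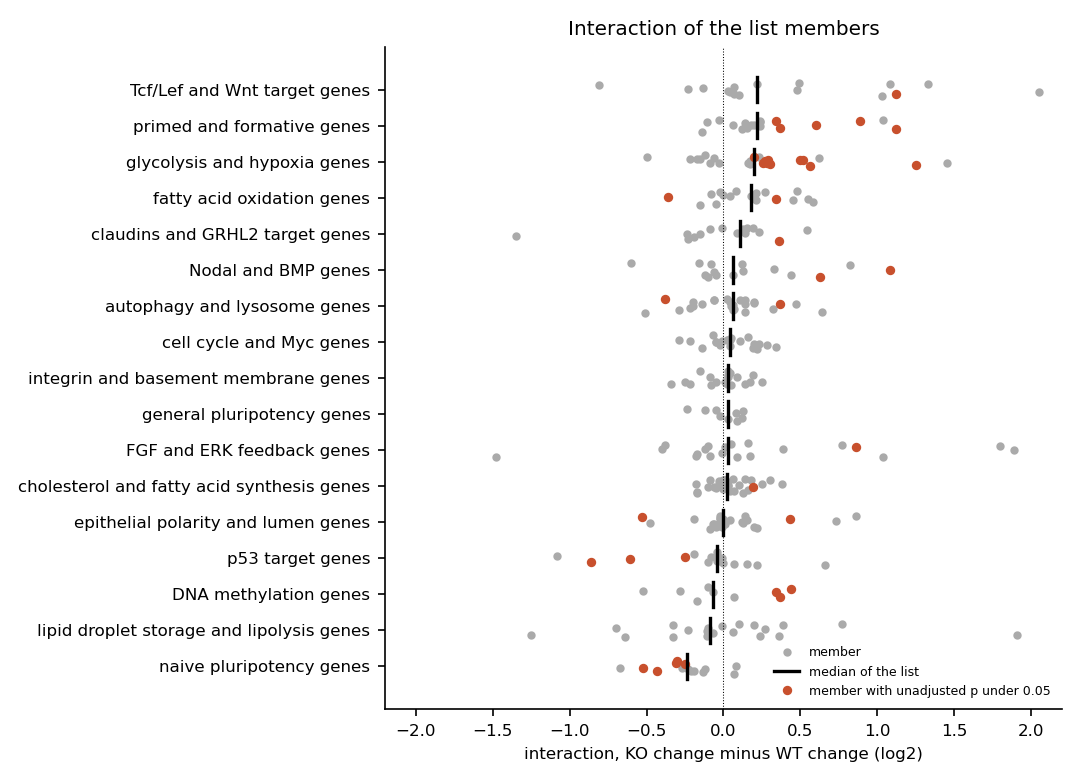
Interaction (KO change minus WT change from 24 h to 48 h, log2) of the tested members of 17 lists, with 1 point per gene, red where the unadjusted p was under 0.05, and a bar at the median of each list. Medians ran from -0.24 for naive genes to 0.22 for primed and formative genes, and 5 members lie outside the axis.

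The question of which genes caught up and which diverged was put to all genes by the size of the difference between KO and WT at each time. A gene was classed as caught up where the difference at 48 h had at most 0.5 times its size at 24 h, as diverged where the reverse held, otherwise as crossed where the signs differed, and as narrowed or widened where they did not. Of the 4 called genes, *Lefty1*, *Wt1* and *Tgtp1* caught up and *Gm7332* crossed. Over all 17424 genes 36.3% caught up and 23.0% diverged, so a class by itself says little. Of the 894 genes with an unadjusted p under 0.05, 44.0% caught up, 37.4% crossed and 18.0% diverged. Of the 255 genes called at 24 h, 104 (40.8%) caught up and 108 (42.4%) narrowed. Of the 117 genes called at 48 h, 17 (14.5%) diverged and 65 (55.6%) widened. The sets called at 24 h and at 48 h were picked by the difference at that time and the 894 by the interaction, so the shares are descriptions.

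Most genes that differed at 24 h kept the direction. Of the 255, 232 (91.0%) had the same sign at 48 h, beside 58.1% of all genes, and 76 were also called there, 75 of them in the same direction. These 75 make up 29.4% of the 24 h list and 64.1% of the 48 h list. Of them 62 were lower in KO and 13 higher, and 42 of the 62 lay on chromosome 10, which holds 4.76% of the tested genes. From the 75 genes, the 5 with the smallest interaction were picked, so their equal differences follow from the choice and are a description. *Apoe*, which encodes a carrier of lipids, was 1 of the 5. It had 189 and 186 CPM in WT and 98.5 and 113 CPM in KO at 24 h, and 214 and 266 CPM in WT and 134 and 138 CPM in KO at 48 h. The difference was -0.82 at both times (adjusted p = 8.8e-05 and 0.00015 in edgeR) and the interaction had an SE of 0.13. The others of the 5 were *Dse* and *Rpf2*, both on chromosome 10, *Fxyd6* and *Sh3d19*. Their differences at both times were -0.56, -0.67, -0.59 and -0.45. Across the 12548 genes that had 10 or more counts in each library, the differences at the 2 times had r = 0.265, a description across genes within these libraries.

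**Figure D3:**
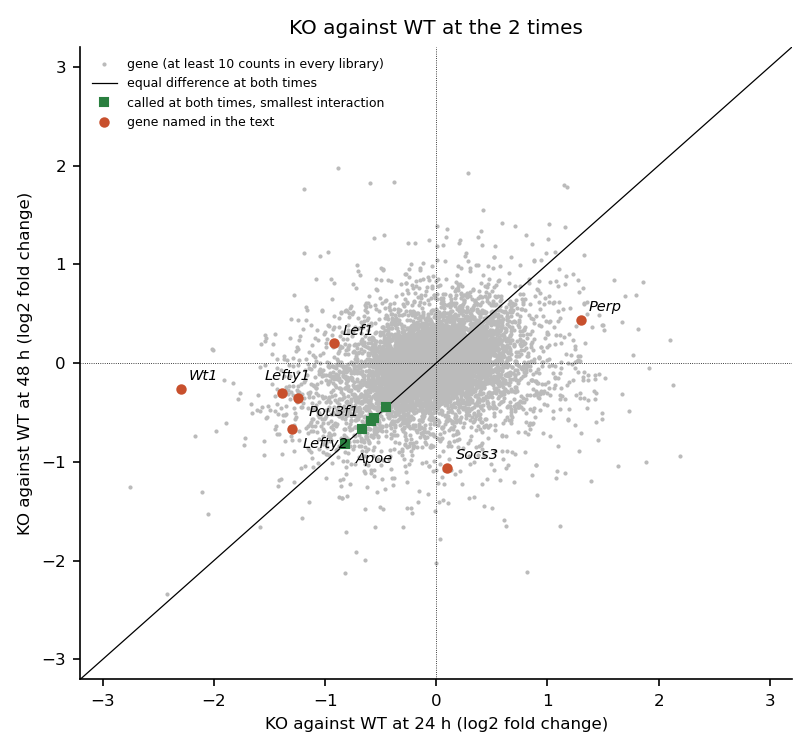
Difference between KO and WT (log2) at 24 h (horizontal) and at 48 h (vertical) for the 12548 genes that reached 10 counts in each library; the line marks equal differences. *Lefty1* and *Wt1* lie far to the left and close to 0 vertically (-1.39 and -0.30, -2.30 and -0.26), while *Apoe* lies on the line at -0.82 at both times.

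Genes were also picked by the contrast of KO and WT in the ESC libraries, in a fit whose filter and spread estimate drew on the spheroid libraries as well. In ESCs 220 genes were called between KO and WT (1.26%), and 3 of the 4 interaction genes were among them (*Lefty1* at -1.0, *Wt1* at -1.4, *Tgtp1* at -3.2). Signed by their direction in ESCs, the 220 had a median difference of 0.66 in ESCs, 0.48 at 24 h and 0.32 at 48 h. At 24 h 212 of them (96.4%) had the sign seen in ESCs and at 48 h 181 (82.3%). The difference was smaller at 48 h than at 24 h in 152 (69.1%), where 53.4% of all genes had it so, and in 149 (67.7%, beside 53%) without KO 24 h replicate 1. Of the 220, 39 (17.7%) had an interaction at an unadjusted p under 0.05, beside 5.13% of all genes. The 59 genes on chromosome 10 kept their difference, with a median of 0.63 at 24 h and 0.65 at 48 h. The 161 genes elsewhere went from 0.36 to 0.18, and 121 of them (75.2%) had the smaller difference at 48 h. The 2 sets were not tested against each other, and the clone cannot be told apart from the deletion in either.

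A count that uses no model was made from the same 8 libraries, so it is a description and no separate support. The change from 24 h to 48 h was formed for each of the 4 pairings of libraries within a genotype, and in 1810 genes (10.4%) every KO change lay above every WT change while in 1288 (7.39%) every one lay below. Of the primed and formative genes 10 of 18 lay above and 0 below, and of the glycolysis and hypoxia genes 11 of 25 above and 1 below. Of the naive genes 0 of 14 lay above and 5 below. The count in either direction was 3098 (17.8%), and 5903 without KO 24 h replicate 1, where fewer pairings remain.

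The interaction varied with transcript length, and the trend was steeper when KO 24 h replicate 1 was left out. Lengths here are effective lengths from kallisto, weighted by TPM within a gene and averaged over libraries. They can be well below the full length, as for *Gm7332* with 273 bases against 454. Over 10 equal bins of transcript length, the median interaction went from 0.16 among the shortest genes (median 471 bases) to -0.06 among the longest (median 5873 bases), and without KO 24 h replicate 1 from 0.18 to -0.16. From the shortest to the longest bin, the median deviation from the mean of all libraries went from -0.12 to -0.14 in KO 24 h replicate 1, with -0.04 to -0.09 in between, and from 0.00 to 0.11 in KO 24 h replicate 2. It went from 0.10 to -0.04 in WT 24 h replicate 1 and from 0.09 to 0.00 in WT 24 h replicate 2. Of the 29 genes called without replicate 1, 9 were positive (0.0517%) and 20 negative (0.115%), and 3 of the 4 calls were among them (*Lefty1*, *Wt1* and *Tgtp1*). The 9 had a median length of 1300 bases and added *Lefty2*, *Lef1*, *Aldoa*, *Gpx4*, *Rpl37rt* and *Gm7367*. The 20 had a median length of 9626 bases, beside 2110 bases over all genes, and 17 were in the bin of longest genes. *Huwe1*, a very long ubiquitin ligase gene, had 796 and 805 CPM in WT, 576 CPM in KO replicate 1 and 982 CPM in KO replicate 2 at 24 h, and 668 and 702 CPM in WT and 575 and 574 CPM in KO at 48 h. The 2 KO libraries at 24 h lay on opposite sides of WT, and *Mdn1*, a ribosome assembly gene, showed the same with 310 and 587 CPM against 425 and 429 CPM in WT. With the length trend of each library removed, 2 genes were called (0.0115%), *Tgtp1* and *Gm7332*, whose values are uncertain because of near-identical copies. In that fit 1.86% of genes had a positive and 2.78% a negative interaction at an unadjusted p under 0.05, so that the larger share changed sides. *Lefty1* then had an interaction of 1.0 and *Wt1* of 1.98, both at an adjusted p of 0.05 just above the threshold. With the trend removed and KO 24 h replicate 1 left out, 6 genes were called.

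**Figure D4:**
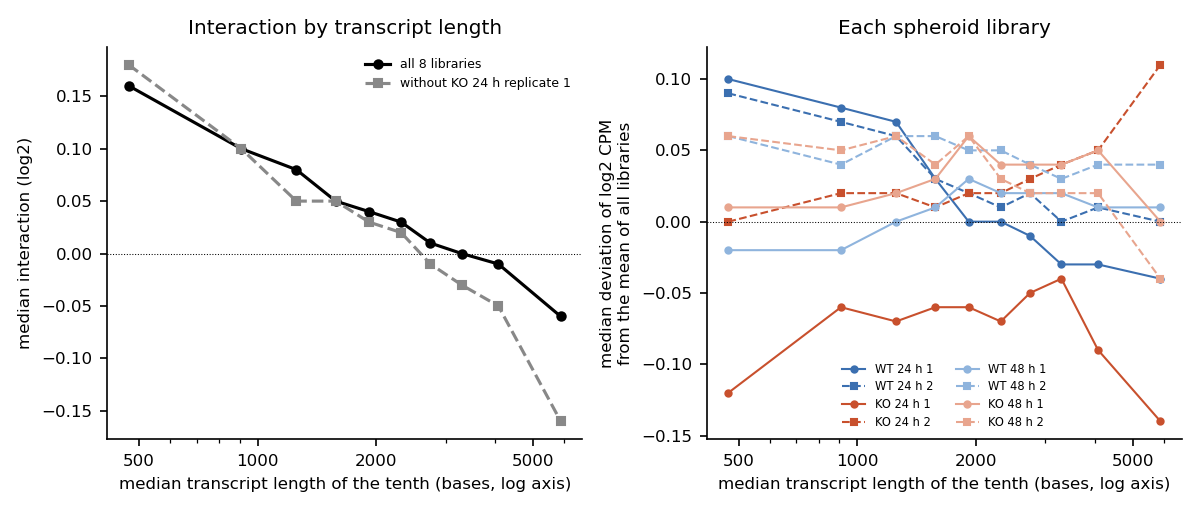
Left, median interaction (log2) of genes in 10 bins of effective transcript length (bases, log axis), with all 8 libraries and without KO 24 h replicate 1. Right, median deviation of log2 CPM from the mean of all libraries for each spheroid library; in the longest bin KO 24 h replicate 1 lies at -0.14 and replicate 2 at 0.11.

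**Figure D5:**
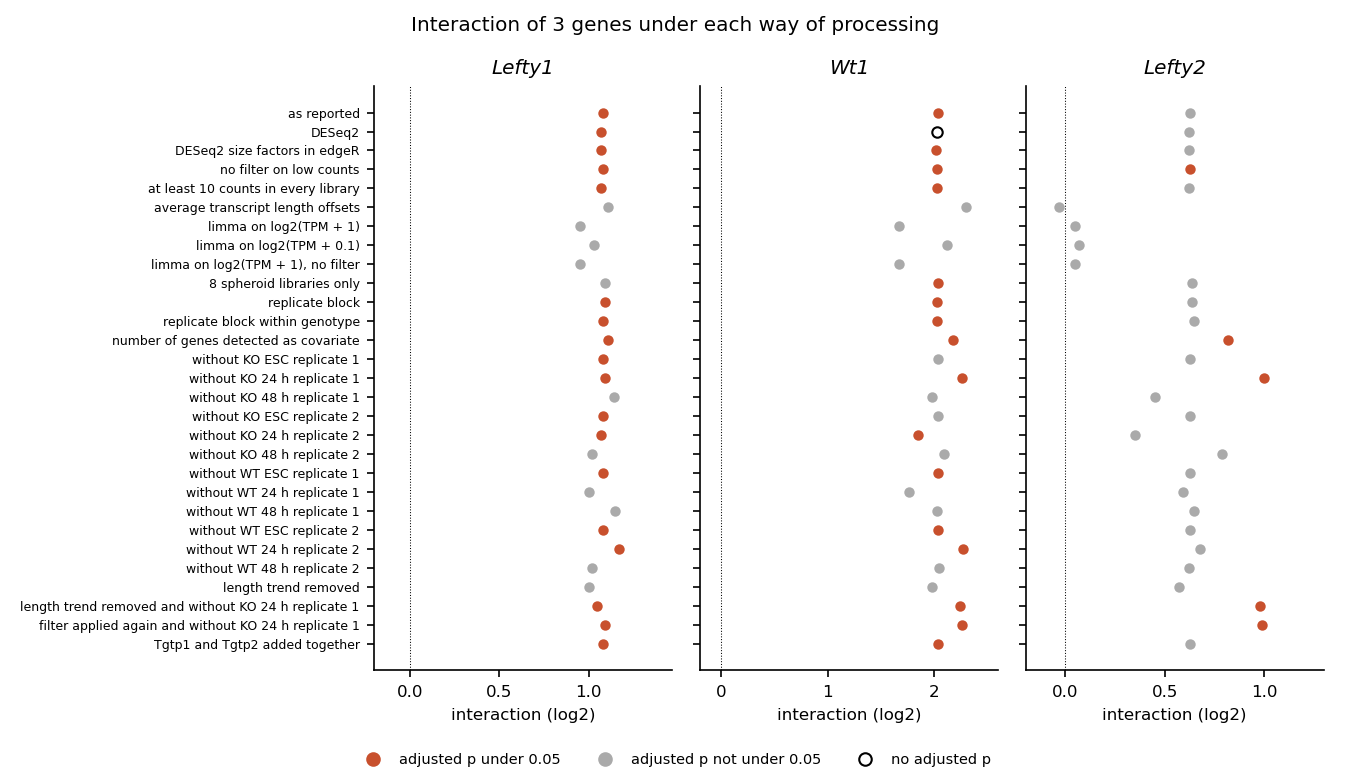
Interaction (log2) of *Lefty1*, *Wt1* and *Lefty2* under each way of processing, red where the adjusted p was under 0.05, grey where it was not, and open where DESeq2 gave none. *Lefty1* and *Wt1* stay positive throughout, from 1.0 to 1.17 and from 1.76 to 2.27 when a library is left out, while *Lefty2* falls to -0.03 with transcript lengths in the fit.

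Markers of other cell types were summed in each library, so a sum can rest largely on its highest member. That member was *Sparc* for primitive endoderm, *Eomes* for mesoderm and primitive streak and *Tubb3* for neural ectoderm. It was *Krt8* for trophoblast, *Vim* for fibroblast and *Zscan4f* for the two-cell-like state. The sums alone do not show that such cells were present. The summed level of 11 primitive endoderm markers was 331 and 334 CPM in WT and 319 and 322 CPM in KO at 24 h, and 183 and 186 CPM in WT and 167 and 185 CPM in KO at 48 h. Mesoderm and primitive streak markers summed to between 14.5 and 31.2 CPM, neural ectoderm markers to between 94.5 and 188 CPM, and trophoblast markers to between 43.2 and 64.4 CPM in the 8 libraries. Fibroblast markers summed to 178 and 161 CPM in WT and 146 and 138 CPM in KO at 24 h, and to 122 and 128 CPM in WT and 97.5 and 106 CPM in KO at 48 h, with 1 of 10 at 0 in every library. The 10 markers of the two-cell-like state, of which 2 were at 0 throughout, summed to 5.21 and 6.25 CPM in WT and 1.46 and 1.11 CPM in KO at 24 h, and 7.98 and 7.60 CPM in WT and 0.915 and 1.45 CPM in KO at 48 h, lower in KO at both times. No marker was called in the interaction, and 1 trophoblast marker had an unadjusted p under 0.05. Their part in the results above was not tested. In these bulk samples, fewer cells in a state and less RNA per cell cannot be told apart.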

How the data were processed

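RNA-seq of WT and CIDEA KO cells was used, with 2 libraries per group, which the study calls independent samples and biological replicates. All KO samples are of 1 clone, so p-values measure the spread between samples of 1 line per genotype. The authors used Trimmomatic 0.33 for trimming and kallisto 0.43.1 for quantification, per the labels' processing notes, and deposited estimated counts and TPM for 115270 transcripts per library. Here 113580 transcripts (98.5%) matched genes of GENCODE M21 (GRCm38), and the 1690 others held 0.659 to 0.709% of counts and were left out. Estimated counts were summed per gene and rounded. Genes were filtered by expression, scaled by TMM and fitted with edgeR 4.0.16 in R 4.3.3 (quasi-likelihood test, 6 groups, all 12 libraries, 17424 genes), with p-values adjusted over all genes by Benjamini-Hochberg and called under 0.05. CPM are TMM-scaled. Since kallisto divides reads among near-identical transcripts by estimation, pairs of copies are uncertain. Totals of 29.2 M to 38.5 M set the precision, with a floor of 3 counts per library.

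Named genes are the called genes, those next by p (average log2 CPM of at least 1) to make 24, up to 3 members of each list by p, and the 5 genes called at both times with the smallest interaction. *Nodal*, *Ppp1r14b*, *Huwe1*, *Mdn1*, *Gm7367* and other list members, and the interferon-inducible genes, were named after their values were seen. Members and lists were chosen with earlier results of these data known. Gene lists were described by counts and medians. Alternatives were DESeq2 1.42.0 with its size factors, limma 3.58.1 on log2(TPM + pseudocount of 1 or 0.1), other filters, transcript length offsets, a replicate block, the number of detected genes as covariate, and leaving out each library. Added after seeing the data were removal of the length trend, this together with leaving out KO 24 h replicate 1, filtering again without it, and adding *Tgtp1* to *Tgtp2*. Sequences come from the GENCODE M21 transcripts, aligned with Biopython 1.88.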

Additional observations from a re-analysis of the deposited data

Results flagged for a closer look

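The genes for which the change from 24 h to 48 h differed between the genotypes by edgeR's quasi-likelihood test of the interaction were *Lefty1* (1.08), *Wt1* (2.04), *Tgtp1* (9.31) and *Gm7332* (19.46), on the log2 scale. In *Lefty1* and *Wt1* both genotypes rose and KO rose more, in each of the 2 libraries per group. The fitted values of *Tgtp1* and *Gm7332* depend on groups at 0 counts and on near-identical copies, so they are not bounds. On the counts as assigned, KO at 24 h was at least 38.5-fold (*Tgtp1*) and at least 20.6-fold (*Gm7332*) below the mean of WT against the floor of 3 counts per library. That floor covers counting error only, so neither value is a bound where reads were given to a copy.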

How the results depend on the processing

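With 2 libraries per group, leaving 1 out assumes that the lone library left varies like the other groups. The 4 calls of the interaction became 19 in DESeq2, 97 with no filter on low counts, 2 where each library had to hold 10 counts, 7 with the number of detected genes as covariate, 2 with the length trend removed, 30 with the filter applied again without KO 24 h replicate 1, 0 with transcript length offsets (859 genes at an unadjusted p under 0.05), 0 in limma on log2(TPM + 1) (969), 0 in the same with no filter (1184) and 1 on log2(TPM + 0.1). Leaving out single libraries gave 0 to 821, the highest without KO 24 h replicate 2. The 255 calls at 24 h became 449 in DESeq2, 615 with no filter, 64 with length offsets, 20, 14 and 16 in limma on log2(TPM + 1), log2(TPM + 0.1) and log2(TPM + 1) with no filter, and 166 with the 8 spheroid libraries. They were 58 to 2279 when a library was left out, at these ends without WT 24 h replicate 1 and without KO 24 h replicate 2. The 117 calls at 48 h became 232, 303, 19, 23, 22, 24 and 68 in the same order, 55 with a replicate block within genotype, 178 with the detected genes as covariate, and 44 to 242 when a library was left out, lowest without replicate 1 of KO or WT at 48 h and highest without KO 24 h replicate 1. The 1418 calls over time in WT became 565 with length offsets, 475, 420 and 360 in the limma fits, and 628 (without WT 24 h replicate 1) to 2161 (without KO 24 h replicate 1). The 1733 in KO became 823, 785, 702 and 591, and 720 (without KO 48 h replicate 1) to 3729 (without KO 24 h replicate 2). Without KO 24 h replicate 1, where fewer pairings remain, the separated genes numbered 5903 in place of 3098. The ESC-chosen medians were then 0.40 at 24 h and 0.24 at 48 h.

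Directions turned for *Rps29* (-0.00) and *Rpl31-ps8* (-0.01) with the length trend removed, *Lefty2* (-0.03) with length offsets, and the perilipin gene *Plin3* (-0.02 with length offsets, -0.07 in each limma fit on TPM). The cause was not tested. Genes named only after their values were seen were not recomputed under each setting. Among the values that were, the others kept their direction, and of 2081 1870 also kept their side of the threshold, 109 lost a call, 71 gained one, and 24, among them those of *Wt1*, *Tgtp1* and *Gm7332*, had no adjusted p in DESeq2 and were not judged. Libraries with the same replicate number did not deviate together over all genes tested (correlations from -0.049 to 0.051). Genes at few counts, where counting error is large, entered this measure, so it cannot show that the numbers do not pair libraries. With a replicate block the interaction had 5 calls, as it had with a block within genotype. A setting with *Tgtp1* and *Tgtp2* added had 3 and DESeq2 size factors in edgeR 4. The 8 spheroid libraries alone had 3, and the call lost there was *Lefty1* (adjusted p = 0.054 in edgeR). Depth limits low genes: *Cidea*, *Tgtp1* and *Gm7332* rest on floors of 3 counts, and a biological coefficient of variation of 0.311 with 2 libraries per group limits the test.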

Other observations

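*Tgtp1* belongs to the interferon-inducible GTPases, and other interferon-inducible genes are given here as values, having been chosen after their values were seen. *Gbp2*, a guanylate-binding protein gene, had 2.76 and 3.04 CPM in WT and 0.0293 and 0.353 CPM in KO at 24 h, and 19.0 and 18.5 CPM in WT and 17.0 and 12 CPM in KO at 48 h. *Igtp*, another GTPase gene of this family, had 4.58 and 6.41 CPM in WT and 1.35 and 2.23 CPM in KO at 24 h, and 13.1 and 14.1 CPM in WT and 11.2 and 8.35 CPM in KO at 48 h. *Psmb8*, an immunoproteasome subunit gene, had 3.39 and 1.72 CPM in WT and 0.0 and 0.852 CPM in KO at 24 h, and 14.6 and 14 CPM in WT and 9.32 and 6.0 CPM in KO at 48 h. In these 3 genes the KO libraries lay below the WT libraries at both times, and the interactions of 3.53 (*Gbp2*), 1.14 (*Igtp*) and 1.67 (*Psmb8*) were not called. The lower KO value at 24 h in all 3 was that of replicate 1, the library in which 529 genes stood at 0. It held 1 count of *Gbp2* and 0 of *Psmb8*, where replicate 2 held 12 and 29. Values without that library are not given for these genes.

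*Ifitm1* had an interaction of 0.54 (SE 0.15, edgeR adjusted p = 0.73), with 165 and 164 CPM in WT and 116 and 107 CPM in KO at 24 h and overlapping groups at 48 h. *Irf1* had an interaction of 0.37 (SE 0.21). *Gbp3* had 3.21 and 2.19 CPM in WT and 0.0 and 0.47 CPM in KO at 24 h, and 10.9 and 8.98 CPM in WT and 4.54 and 4.4 CPM in KO at 48 h, below WT at both times. *Irgm2* had 4.58 and 2.11 CPM in WT and 0.0 and 1.23 CPM in KO at 24 h, and 5.12 and 7.02 CPM in WT and 5.97 and 5.03 CPM in KO at 48 h, where the groups overlapped. *Irgm1* had 20.1 and 16.5 CPM in WT and 16.3 and 7.08 CPM in KO at 24 h, groups that nearly touched, and overlapped at 48 h. Other genes took other courses. *Ifitm3* was higher in both KO libraries than in both WT libraries at 24 h and at 48 h, by 0.26 and 0.46 on the log2 scale, neither called. *Ube2l6* overlapped at 24 h and lay above WT at 48 h, at 1.19 and 2.16 CPM in WT and 2.31 and 3.43 CPM in KO. *Rnf213* had 175 and 172 CPM in WT and 82.9 and 177 CPM in KO at 24 h, and 201 and 194 CPM in WT and 110 and 103 CPM in KO at 48 h. None of the 6 interactions was called with all 12 libraries in the fit, at 2.35 (*Gbp3*), 2.29 (*Irgm2*), 0.62 (*Irgm1*), 0.20 (*Ifitm3*), 0.85 (*Ube2l6*) and -0.47 (*Rnf213*). When KO 24 h replicate 1 was left out, *Rnf213* was called with a negative interaction. The 0 of *Gbp3* and *Irgm2* was that of KO 24 h replicate 1, where replicate 2 held 16 and 42 counts. Replicate 1 was also the lower KO library at 24 h in *Ube2l6* and *Rnf213*. Replicate 2 was the lower one in *Ifitm1*, *Irf1*, *Irgm1* and *Ifitm3*.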
